A study of Mus musculus with 6 samples.

Results

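Bnip3 and Bnip3l encode a pair of mitophagy receptors, BNIP3 and NIX, and both members were found by gene name among the 7340 genes of the deposited table (2 of 7340). RNA sequencing was done on 6 wild-type mouse kidney samples in 2 groups of 3. Both groups had ischaemia-reperfusion injury (IRI), the damage left when the blood supply is stopped and then returns. The second group also had MK-8617, a compound that blocks HIF prolyl hydroxylase and so keeps the transcription factor HIF (hypoxia-inducible factor) from being degraded. The labels give no strain, dose or age, the design text speaks of tumours, the column names alone carry a 1d tag, and no uninjured kidney was analysed here. Under treatment, replicates 2 and 3 of the second group read MK8618 and MK8619 where the titles read MK8617, and the titles were followed. Libraries held 16835541 to 19508497 counted reads.

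BNIP3 and NIX are proteins of the mitochondrial outer membrane. They carry a short motif that binds the ATG8 proteins (LC3 and GABARAP) on a forming autophagosome, so that a mitochondrion bearing them is enclosed and degraded without the ubiquitin marks used by the PINK1-Parkin route. Both are known HIF targets, both belong to the BH3-only branch of the BCL2 family by sequence, and NIX is known for clearing mitochondria from maturing red cells. In the kidney, tubular cells are rich in mitochondria, and both receptors have been linked to mitochondrial turnover after ischaemia.

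Bnip3 (ENSMUSG00000078566) lies on GRCm38 chromosome 7, 138890836 to 138909519, minus strand, and its annotated principal transcript has 6 exons and 1756 bases, of which 564 are coding. Bnip3l (ENSMUSG00000022051) lies on chromosome 14, 66985239 to 67008877, also on the minus strand, with 6 exons, 3238 bases and 657 coding bases. Their coding sequences were identical at 76.4% of 543 aligned bases, and the longest run they shared was 14 bases.

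A RefSeq promoter sequence (GRCm38.p6) was at hand for Bnip3. It is printed because both genes are known HIF targets and rose together here. The window covers 250 bases before and 50 after the start site, chr7:138909457-138909756, minus strand, and capitals mark the core letters of the hypoxia response element, ACGTG and GCGTG, searched on both strands.
Bnip3: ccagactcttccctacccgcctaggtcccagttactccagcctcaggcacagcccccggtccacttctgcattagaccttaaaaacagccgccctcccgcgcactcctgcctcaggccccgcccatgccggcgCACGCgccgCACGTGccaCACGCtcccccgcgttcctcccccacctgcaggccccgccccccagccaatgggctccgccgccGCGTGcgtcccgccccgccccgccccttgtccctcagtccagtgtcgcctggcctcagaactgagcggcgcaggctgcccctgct
The window held 5 matches in 4 blocks, beginning at -117, -108, -107, -99 and -35 from the start site, and the pair at -108 and -107 is 1 palindrome read on both strands. At least 1 match was present in 43.8% of 32851 promoters of the same length, and 5 or more in 1.66% of them. Among the 4126 promoters within 5 percentage points of the GC content of Bnip3 (71.7%), 73.2% held a match and 5.07% held 5 or more. A match describes letters and is not a measured site.

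Bnip3 rose more than any other listed mitophagy receptor. Counts divided by the authors' size factor, called normalised reads here, were 801, 910 and 672 with IRI alone (replicates 1, 2 and 3). With MK-8617 they were 5565, 7262 and 5748. Every MK-8617 library lay above every IRI library, and the lowest of them was 6.12 times the highest IRI value. The means were 794 ± 119 and 6192 ± 931 (SD, n = 3 per group), a ratio of 7.80. On the log2(value + 1) scale the change was 2.96 ± 0.14 (SE), with an adjusted p of 1.57e-05 in limma's test over the whole table. In bulk tissue, more cells of a type and more RNA per cell cannot be told apart.

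Bnip3l also rose, by less and with less spread. Its normalised reads were 1227, 1316 and 1171 with IRI alone and 3424, 3567 and 3559 with MK-8617, so the groups did not overlap. The means were 1238 ± 73.1 and 3517 ± 80.3 (SD, n = 3 per group), a ratio of 2.84. The log2 change was 1.51 ± 0.09 (SE) with an adjusted p of 3.63e-05 by limma. In the authors' deposited table the log2 fold changes were 2.96 and 1.51, with adjusted p-values of 5.89e-72 for Bnip3 and 7.92e-36 for Bnip3l.

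The background to these calls is broad, since every gene in the table had passed p < 0.05 when the authors compared the same groups. Of 6961 genes tested, 2482 (35.7%) were higher and 2691 (38.7%) lower at an adjusted p below 0.05 (74.3% either way), and every MK-8617 library was above every IRI library in 44.8%. A call on either receptor, or the absence of overlap, is therefore common among listed genes, and the size of the change places them better. The Bnip3 change ranked 36 among the 6961 tested genes and that of Bnip3l ranked 342, so that 0.503% and 4.90% of tested genes had a larger log2 fold change. The median over all tested genes was -0.31, and -0.0056 once a trend of each library on gene length was removed. This median and the list medians below cover only genes that passed the authors' p < 0.05, so unlisted members do not enter them.

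The same shares apply to the other settings used below. Leaving out IRI replicate 1, 2 or 3 gave 25.8%, 28.1% and 35.2% higher and 29.5%, 30.8% and 38.6% lower. Leaving out MK-8617 replicate 1, 2 or 3 gave 21.4%, 25.4% and 23.4% higher and 27.7%, 30% and 27.8% lower. With the length trend removed 31.1% were higher and 28.5% lower, and with the replicate number as a block 36.1% and 39.5%. On the FPKM scale 30.4% were higher and 37.8% lower. With TMM factors the balance turned round, to 42.1% higher and 33.9% lower. The shares higher and lower were 34.5% and 36% among genes of at least 5 CPM, 37.5% and 41% with DESeq2, and 47% and 50.2% when adjusted over the tested genes alone. Of the genes in the authors' deposited table, 36.3% were higher and 40.8% lower at an adjusted p below 0.05.

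Spread between libraries differed between the receptors. For Bnip3 the coefficient of variation of normalised reads was 15.0% in both groups, against a counting error of 3.16% to 3.78% with IRI and 1.21% to 1.36% with MK-8617. MK-8617 replicate 2 was the highest library for Bnip3 and stood 1.30 times above replicate 1. For Bnip3l the coefficient was 5.90% with IRI and 2.28% with MK-8617, the latter close to the counting error of 1.73%. The recovered read counts of Bnip3l in the MK-8617 libraries were 3342, 3342 and 3347.

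**Figure D1:**
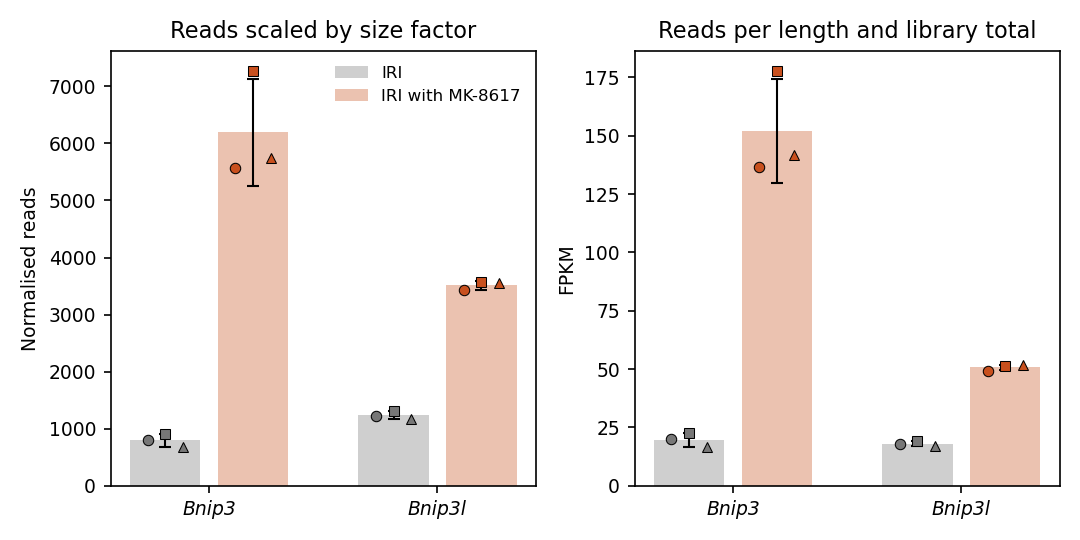
Bars give the group mean and whiskers the SD (n = 3 per group) of normalised reads (left panel) and FPKM (right panel) for Bnip3 and Bnip3l, in grey for IRI and orange for IRI with MK-8617; circles, squares and triangles are replicates 1, 2 and 3. The MK-8617 libraries of Bnip3 sit between 5565 and 7262 normalised reads, above IRI libraries at 672 to 910, and those of Bnip3l between 3424 and 3567, above 1171 to 1316.

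Levels of different genes can be compared only per length, for which the deposited FPKM (reads scaled by gene length and library total) were used. Bnip3 stood at 19.98, 22.6 and 16.6 FPKM in the IRI libraries and at 136, 178 and 142 FPKM with MK-8617. Bnip3l stood at 18.0, 19.2 and 17.0 FPKM in the IRI libraries and at 49.3, 51.2 and 51.5 FPKM with MK-8617. With IRI alone the receptors were thus at similar levels, 19.7 ± 3.00 and 18.1 ± 1.10 FPKM, and Bnip3 was the lower of the pair in IRI replicate 3. With MK-8617 Bnip3 was above Bnip3l in all 3 libraries.

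The ratio of Bnip3 to Bnip3l within a library does not depend on that library's size factor. In FPKM it was 1.11, 1.18 and 0.977 with IRI alone and 2.77, 3.47 and 2.75 with MK-8617. Each MK-8617 ratio was above each IRI ratio. The log2 ratio of normalised reads differed by 1.46 ± 0.14 (SE) between the groups, a 2.74-fold shift towards Bnip3 that was seen in 3 of 3 MK-8617 libraries. A two-sided exact permutation test gave p = 0.1, the smallest that 3 against 3 samples allow.

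As a share of the pair in FPKM, Bnip3 made up 52.7%, 54.1% and 49.4% with IRI alone and 73.5%, 77.6% and 73.3% with MK-8617. The mean share went from 52.1 ± 2.39% to 74.8 ± 2.43% (SD, n = 3 per group, two-sided exact permutation p = 0.1). The summed level of the pair went from 37.8 ± 4.09 to 203 ± 23.0 FPKM, with a two-sided exact permutation p of 0.1. The FPKM rest on exon lengths of 2265 and 3859 bases. With the shorter principal transcripts the shares were 54.0 ± 2.38% and 76.3 ± 2.33%.

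**Figure D2:**
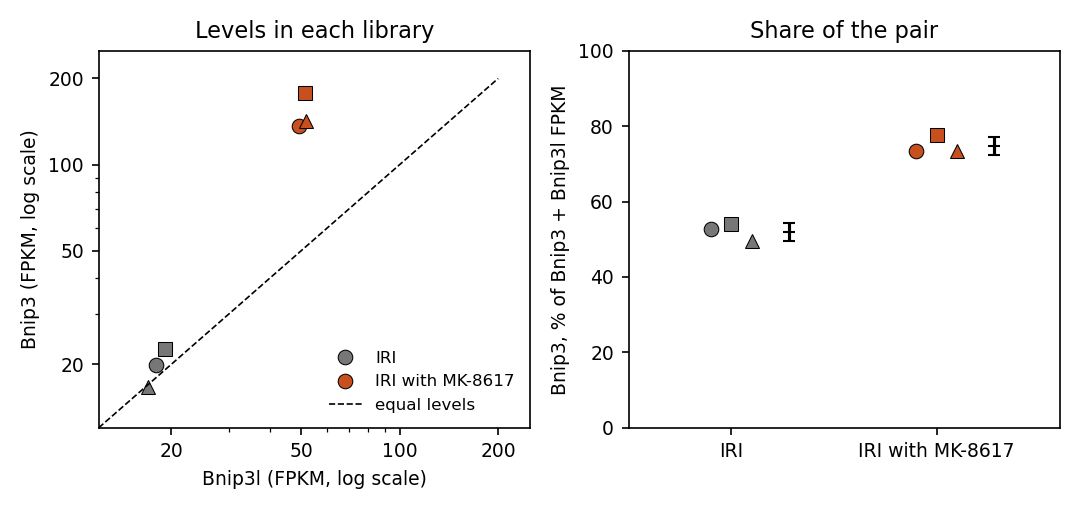
Left, FPKM of Bnip3 against Bnip3l in each of the 6 libraries on log axes, with a dashed line at equal levels; right, the share of Bnip3 in the summed FPKM of the pair, in percent, with the mean and SD (n = 3 per group) beside the points. The IRI libraries lie near the line of equal levels (49.4% to 54.1%), and the MK-8617 libraries lie above it (73.3% to 77.6%).

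Both receptors have copies that could share reads with them. In 50-base windows of the principal transcripts, 62.4% of those of Bnip3 also occurred in transcripts of 6 other annotated genes, among them the non-coding AC160336.1 on chromosome 14 (44.9% of windows) and Gm45507, which runs antisense across the 3' part of Bnip3 (21.0%). None of these 6 genes is in the table. The labels do not describe the library kit as keeping strand, so reads of Gm45507 and Bnip3 cannot be told apart. The same holds for Gm18258, a processed pseudogene on the other strand within Bnip3, which had a mean of 0.30 normalised reads with IRI and 7.41 with MK-8617 and was removed by the filter on low counts. For Bnip3l, 25.1% of windows occurred in 1 other gene, the transcribed processed pseudogene Bnip3l-ps (chromosome 12, 18216542 to 18217673).

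Bnip3l-ps is itself in the table, with 98.4, 99.3 and 82.4 normalised reads with IRI alone and 199.8, 193 and 213 with MK-8617. It rose by a log2 fold change of 1.11 ± 0.18 (limma adjusted p = 0.0023). Its reads came to 5.42% to 8.02% of those of Bnip3l, and which gene they came from was not tested. With them added, the Bnip3l change was 1.48. How many reads of Bnip3 its copies take was not tested.

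The nearest protein-coding gene beyond the start of Bnip3l is Ppp2r2a, a regulatory subunit of protein phosphatase 2A on the same strand, 5179 bases away. Its mean went from 877 to 1178 normalised reads, an increase of 0.43 ± 0.10 on the log2 scale (limma adjusted p = 0.0159). That is smaller than the change of Bnip3l. The neighbours of Bnip3 at 7779 and 31211 bases, Ppp2r2d and Jakmip3, and the far neighbour of Bnip3l, Pnma2, are not in the table and were not analysed here.

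Of the 7 mitophagy receptors considered, 4 were listed and all 4 passed the test, as did 74.3% of all tested genes. Bnip3 and Bnip3l were higher and the other two lower. Fkbp8, an outer-membrane receptor that binds LC3, was at 4665 ± 205 normalised reads with IRI and 3200 ± 358 with MK-8617 (SD, n = 3), a log2 fold change of -0.55 ± 0.11. Phb2, an inner-membrane prohibitin that binds LC3 once the outer membrane is breached, had a change of -0.49 ± 0.11 (from 4172 ± 191 to 2984 ± 289). For both genes every MK-8617 library was below every IRI library, as in 47.6% of tested genes. Fundc1, Bcl2l13 and Nlrx1 are not in the table and were not analysed here.

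Per length, the order of these receptors differed between the groups. With IRI alone Phb2 (63.1 ± 3.16 FPKM) and Fkbp8 (58.0 ± 2.59 FPKM) stood above Bnip3 and Bnip3l, with no overlap in any library. Phb2 and Fkbp8 overlapped each other, as did Bnip3 and Bnip3l. With MK-8617 Bnip3 stood first at 152 ± 22.3 FPKM and Bnip3l second at 50.7 ± 1.21 FPKM. Phb2 followed at 44.6 ± 4.26 FPKM, its highest library (49.5) overlapping the lowest of Bnip3l (49.3), and Fkbp8 at 39.3 ± 4.35 FPKM overlapped Phb2.

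The ATG8 proteins are what the receptors bind on the autophagosome, and 3 of 5 members were listed. Map1lc3b, which encodes LC3B, rose by 0.59 ± 0.10 on the log2 scale, from 2579 ± 83.3 to 3892 ± 384 normalised reads (limma adjusted p = 0.00368). Gabarapl1 rose by 0.50 ± 0.12, or by 0.78 with a trend on gene length removed. Gabarap was at -0.28 ± 0.10 and did not pass the test (limma adjusted p = 0.0746). It was past the threshold with DESeq2 (-0.29) and when adjusted over the tested genes alone (-0.28), and it was at 0.038 with the length trend removed.

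Genes taken as partners or regulators of BNIP3 or NIX were thinly covered, with 3 of 12 listed. Of these 2 were higher, beside 35.7% of all tested genes. Bcl2l1, which encodes the BNIP3-binding survival protein BCL-XL, went from 4282 ± 511 to 5900 ± 738 normalised reads (log2 fold change 0.46 ± 0.13, limma adjusted p = 0.0309). Trim28, a ubiquitin ligase and corepressor, was at 0.30 ± 0.09. Foxo3, a transcription factor that can induce both receptors, was named after its values were seen and was at 0.30 ± 0.11 (limma adjusted p = 0.0879). The calls of both risen members were lost on the FPKM scale (0.44 and 0.28). Leaving out IRI replicate 1 (0.51 and 0.26) or 2 (0.36 and 0.30), or MK-8617 replicate 1 (0.38 and 0.28) or 3 (0.44 and 0.33), also ended both. That of Trim28 was also lost without MK-8617 replicate 2 (0.30) and with the replicate number as a block (0.30). Fbxl4 and Pptc7, which promote degradation of both receptors, are not in the table.

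The ubiquitin-dependent PINK1-Parkin route had 11 of 21 members tested, of which 6 rose and 1 fell (35.7% and 38.7% over all tested genes), with a median log2 fold change of 0.40 against -0.31 over all tested genes. Calcoco1, an autophagy receptor, rose from 771 ± 59.6 to 1401 ± 90.3 normalised reads (0.86 ± 0.10). March5, an outer-membrane ubiquitin ligase, rose by 0.44 ± 0.09. The member that fell was Tomm7, a small translocase subunit that stabilises PINK1 on damaged mitochondria. It had 1311 ± 115 normalised reads with IRI and 243 ± 55.2 with MK-8617 (-2.45 ± 0.16). The number that rose was 2 without MK-8617 replicate 1 and 2 without MK-8617 replicate 3, and with the length trend removed March5 was at 0.67.

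Of 39 core genes of autophagosome formation 18 were tested, 15 rose and 2 fell, beside 35.7% higher and 38.7% lower over all tested genes. Their median log2 fold change was 0.50. Ulk1, the kinase that starts autophagosome formation, rose from 980 ± 14.9 to 2400 ± 96.1 normalised reads (1.29 ± 0.09). Vmp1, a membrane protein of the growing autophagosome, rose from 5676 ± 771 to 18171 ± 616 (1.69 ± 0.12), and Wdr45, a phosphoinositide-binding factor, by 0.84 ± 0.13. The Vmp1 change was near that of Bnip3l (1.51), and their difference was not tested. Atg7, the E1-like enzyme of ATG8 conjugation, was at -0.38 ± 0.10 and Tfeb, a transcription factor of lysosomal genes, at -0.33 ± 0.09. With TMM factors neither of these 2 falls passed (-0.32 and -0.27). The call of Atg7 was also lost when any 1 library but IRI replicate 2 was left out (-0.42 to -0.32), and that of Tfeb without IRI replicate 1 or 2 or MK-8617 replicate 1 or 2 (-0.32 to -0.30). The number that rose was 9 without MK-8617 replicate 1.

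Mitochondrial fission and fusion genes tested here had smaller changes than either receptor. Of 14 members 7 were tested, with 4 higher and 2 lower, so that 6 of 7 passed beside 74.3% of all tested genes. The median was 0.32. Fis1, an outer-membrane fission adaptor, fell from 2307 ± 136 to 1258 ± 237 normalised reads (-0.89 ± 0.14), or by 0.53 with the length trend removed. The other called members had changes between -0.35 (Mfn2, a mitofusin) and 0.39 (Mtfr1, a fission regulator), with Dnm1l, the fission GTPase, at 0.33. With fewer libraries several of these smaller calls no longer passed, at changes of similar size. The number that rose was 1 without IRI replicate 1 or MK-8617 replicate 2, 2 without IRI replicate 2, 0 without MK-8617 replicate 1 (Mtfr1 at 0.37, Dnm1l at 0.34), and 1 with the length trend removed. Mfn2 lost its call without IRI replicate 1 (-0.32) or MK-8617 replicate 1 (-0.34) or 2 (-0.33).

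Of 22 other members of the wider BCL2 family 11 were tested, 7 fell and 3 rose, beside 38.7% lower and 35.7% higher over all tested genes. Their median was -0.76. The pore-forming effectors Bak1 and Bok had changes of -0.92 ± 0.11 and -0.95 ± 0.13, and the BH3-only gene Bad of -0.76 ± 0.11. Named after their values were seen, the survival genes Bcl2a1d (-2.53 ± 0.56) and Bcl2a1b (-2.13 ± 0.55) had the largest falls of the list. They rest on 33.0 ± 25.0 and 15.6 ± 2.91 normalised reads with IRI. Bcl2l14 (-1.24) and Bax (-0.44) also fell. The survival gene Mcl1 rose by 0.63 ± 0.13 and the BH3-only gene Bcl2l11 by 0.78 ± 0.16, the third being Bcl2l1. With the length trend removed Bok was at -0.63 and Bad at -0.48, and the number that fell was 4 under a filter of 5 CPM.

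Of 20 nuclear genes used as measures of mitochondrial content, 11 were tested, 7 fell and 2 rose, beside 38.7% lower and 35.7% higher over all tested genes. The median was -0.43. Slc25a4, the ADP/ATP carrier gene, fell from 7811 ± 658 to 3103 ± 316 normalised reads (-1.33 ± 0.12). Esrra, a nuclear receptor that drives mitochondrial genes, had a change of -1.16 ± 0.11, and Tomm22, an import receptor, of -0.68 ± 0.12. With the length trend removed Tomm22 was at -0.30 and did not pass. Tfb2m, a mitochondrial transcription factor, rose by 0.53 ± 0.10, and Polrmt, the mitochondrial RNA polymerase gene, was at 0.35 ± 0.11. The call of Polrmt was lost without any 1 replicate other than IRI replicate 3 (0.29 to 0.37). It was also lost on the FPKM scale (0.33), under the filter of 5 CPM (0.35), with the length trend removed (0.31) and with the replicate block (0.35), and each of these left 1 member higher.

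Of 13 protein-coding transcripts of the mitochondrial genome 11 were tested, 7 rose, beside 35.7% over all tested genes, and the other 4 did not pass. Their median was 0.55. mt-Co3, a cytochrome oxidase subunit, rose by 1.68 ± 0.21, mt-Nd5 of complex I by 1.05 ± 0.13 and mt-Cytb of complex III by 0.75 ± 0.10, the last at 1.34 with the length trend removed. With the replicate number as a block 1 member fell, and 3 fell when adjusted over the tested genes alone. RNA levels do not measure mitochondrial number or mitophagy.

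Of 33 known HIF targets 29 were tested and 28 rose, beside 35.7% over all tested genes, with log2 fold changes of 0.35 to 3.98 and a median of 1.15. The exception, Higd1a, was named after its values were seen and was at -0.29 ± 0.12 (limma adjusted p = 0.103). It passed downward only when adjusted over the tested genes alone. Among these 29 genes, 2 had a larger change than Bnip3 and 8 a larger change than Bnip3l. The Bnip3 change of 2.96 lay between those of Slc16a3, a lactate exporter (2.69 ± 0.19), and Car9, a carbonic anhydrase named for its rank (3.46). Ndrg1, a stress-responsive gene, rose by 2.13 ± 0.15. The list was written with earlier results of these samples known and is not independent evidence of its direction.

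**Figure D3:**
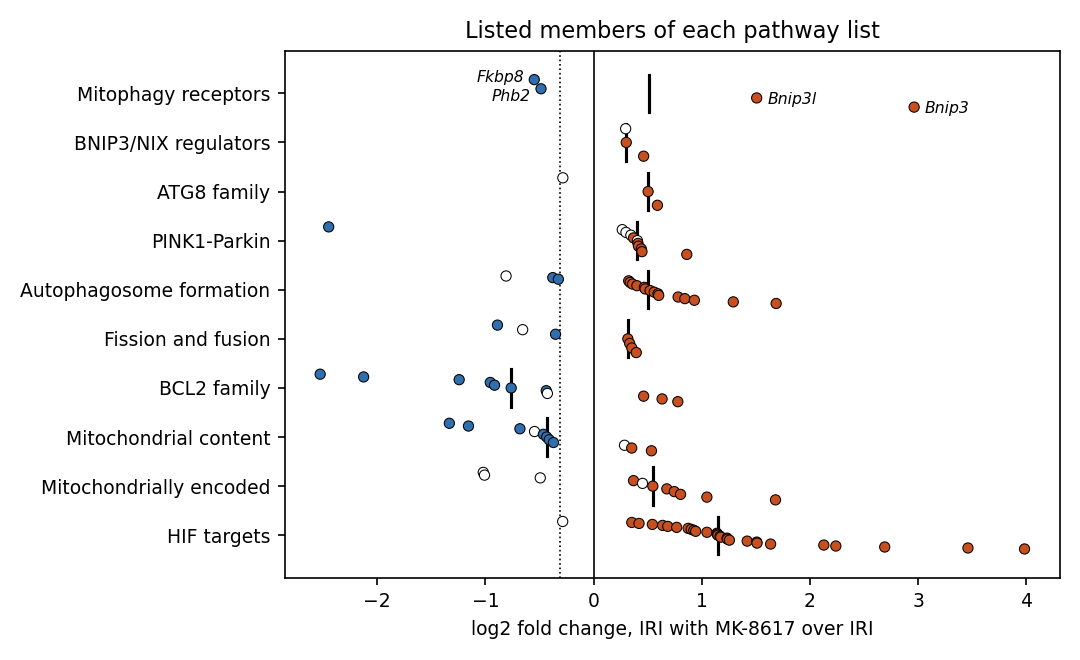
Each point is the log2 fold change (IRI with MK-8617 over IRI, n = 3 per group) of 1 tested member of a pathway list, filled orange or blue where it was higher or lower at an adjusted p below 0.05 by limma and white where it did not pass; black bars are list medians and the dotted line is the median of all tested genes (-0.31). Bnip3 (2.96) and Bnip3l (1.51) stand to the right of Fkbp8 and Phb2, and the BCL2 family and mitochondrial content lists have medians below 0.

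Genes with a pattern most like each receptor were sought over the 6 samples by the root-mean-square distance between log2 values, each centred on its own IRI mean, among 6109 genes averaging 1 CPM or more. For Bnip3l the nearest was Bhlhe40, a transcriptional repressor, at a distance of 0.0610. It was followed by Plod2, a collagen lysyl hydroxylase (0.0849), Fh1, the fumarate hydratase gene (0.104), Tgif1, a homeobox repressor (0.112), and Rnf122, a ubiquitin ligase gene (0.112). These 5 genes had log2 fold changes of 1.42 to 1.53, a closeness that the distance largely builds in.

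Bnip3 had no neighbour as close. The distance depends largely on the size of the change, and few genes changed as much as Bnip3 (0.503% of tested genes changed upward by more). The nearest gene was mt-Te, a mitochondrial tRNA gene, at 0.177, followed by Nap1l5 (0.192), Slc16a3 (0.228), Cyp4a14, a fatty acid omega-hydroxylase (0.237), and Eno1b, an enolase copy (0.348). Nap1l5 rests on 5.93 ± 1.91 normalised reads with IRI. Whether Cyp4a14 and Eno1b share reads with related genes, or mt-Te with abundant mitochondrial transcripts beside it, was not tested. The counts of these 3 genes are therefore uncertain. Bnip3l was at rank 133 from Bnip3 with a distance of 1.04, and Bnip3 at rank 2831 from Bnip3l.

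**Figure D4:**
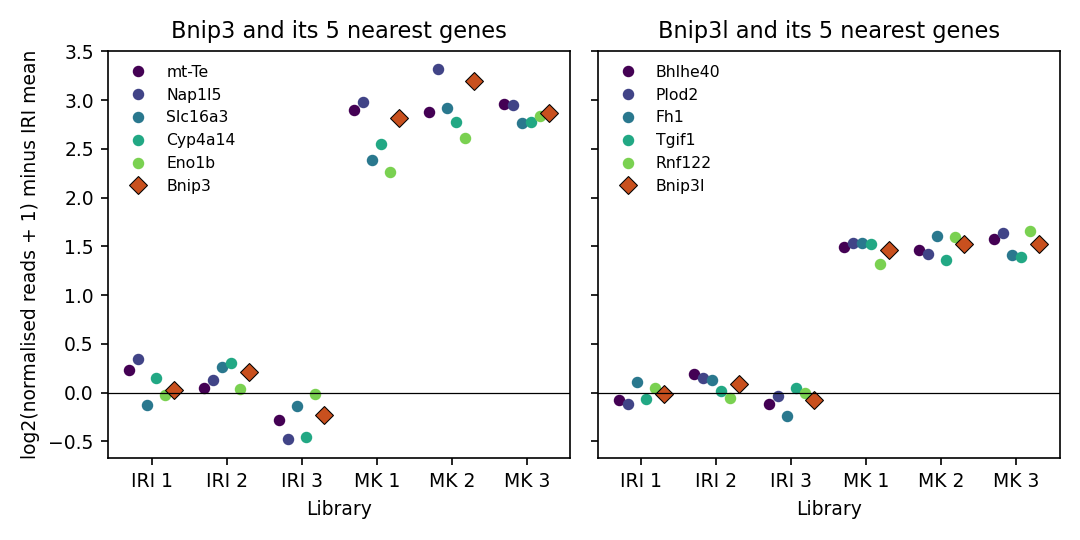
The vertical axis is log2(normalised reads + 1) minus the gene's IRI mean and the horizontal axis lists the 6 libraries; diamonds are Bnip3 (left) and Bnip3l (right) and circles the 5 genes nearest to each. Bnip3 reaches 3.20 in MK-8617 replicate 2 and 2.82 and 2.87 in the other two, while Bnip3l stays between 1.47 and 1.53.

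Cell type markers differed between the groups as well, where 35.7% of all tested genes were higher and 38.7% lower. Of 15 proximal tubule markers 6 were listed (3 rose, 1 fell), and their summed level was 806 to 2088 CPM (reads scaled to library total) with IRI and 3423 to 3737 CPM with MK-8617. The largest part of that sum was Slc27a2 (311 to 1185 CPM and 1825 to 1958 CPM), which did not pass and was lowest in IRI replicate 3. Slc22a8, Slc4a4 and Miox rose, Gatm fell, and Slc5a2 did not pass. Of 9 macrophage markers 8 were listed (6 fell), at a sum of 214 to 371 CPM with IRI and 135 to 184 CPM with MK-8617. Of 8 fibroblast and pericyte markers 5 were listed (4 fell, 1 rose), at 1004 to 1805 CPM and 320 to 396 CPM. Of 11 erythroid markers 2 were listed, Slc4a1 and Bpgm, and both fell, from a sum of 49.9 to 63.0 CPM to 34.0 to 36.2 CPM. Of 7 neutrophil markers 2 were listed (both fell), at 29.8 to 46.7 CPM and 10.5 to 26.4 CPM. Thick limb and distal markers (7 of 9 listed, 3 rose, 2 fell) summed to 1515 to 2531 CPM and 2090 to 3161 CPM. Most of that sum was Umod (1220 to 2046 CPM and 1643 to 2810 CPM), which did not pass. Egf, Pvalb and Trpm6 rose, and Slc12a1 and Kcnj1 fell. Collecting duct markers (5 of 9 listed, 1 rose, 2 fell) summed to 240.0 to 273 CPM and 276 to 382 CPM. The 1 that rose was Slc4a9 (64.7 to 81.8 CPM and 182 to 278 CPM), while Fxyd4 and Atp6v1g3 fell. Podocyte markers (2 of 5 listed, both rose) summed to 37.2 to 44.2 CPM and 60.1 to 65.4 CPM. The 1 listed endothelial marker of 8, Emcn, which did not pass, was at 76.4 to 91.9 CPM and 57.7 to 73.9 CPM. The 9 lymphocyte markers are not in the table. No listed marker of these lists was at 0 in all libraries, and the part of cell composition in the changes of Bnip3 and Bnip3l was not tested.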

How the data were processed

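Total RNA of 6 mouse kidney samples was sequenced. DESeq2 1.20.0, featureCounts 1.5.0-p3, HISAT2 2.0.5, fastp and CASAVA 1.8 are listed, without roles, per the submitters' processing notes. These name the human build GRCh38, but the deposited identifiers are mouse, and 7338 of 7340 matched GENCODE M21 (GRCm38). The deposited signal values are gene counts after the authors' division by a size factor for each library. Whole reads were recovered for 100% of values (tolerance 0.001), and they equalled the deposited raw count of IRI replicate 3 in 7340 genes. On these reads edgeR called 2408 genes higher and 2692 lower. The deposited FPKM values are the authors' reads per length and library total. The authors' log2 fold changes and p-values were deposited for listed genes only (largest p 0.0499), and 11560 of the 18811 genes they imply were not analysed here. Another 13 columns were empty.

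The design had allowed for either raw or scaled counts. For the scaled ones limma 3.58.1 (trend, robust, R 4.3.3) was run on log2(value + 1), which understates low genes. A filter by edgeR 4.0.16 (filterByExpr) left 6961 genes, and p-values were adjusted by Benjamini-Hochberg over 18811 genes at a threshold of 0.05. The procedure was also run on simulated data drawn without the deposited table's selection by p-value. That run does not cover such a selection, and its outcome is not reported here. Permutation tests were exact and two-sided (scipy 1.17.1). DESeq2 1.42.0, limma-voom and other settings were alternatives. The length trend was a lowess fit per library on gene length from reads and FPKM. Genes were named by rule: listed receptors and ATG8 genes, up to 3 per direction of every other list, and 5 nearest genes per receptor. Not every gene it takes is described. The 2 receptors, the 10 pathway lists and 10 marker lists were chosen with earlier results of these data known. Replicate numbers were not used to pair the samples in the main test, since their meaning is not stated. Nothing says that replicates were separate animals, so p-values measure the spread between samples, which may be technical. Counting errors cover counting alone. A sequence comparison of the coding regions is given as numbers only, and its letters are not reported here.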

Additional observations from a re-analysis of the deposited data

How the results depend on the processing

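Both receptors kept their direction and passed the threshold under all alternatives run. The Bnip3 change was 2.84 to 3.07 when 1 library was left out (6 fits) and 2.94 to 3.20 under 12 other settings, and the Bnip3l change was 1.47 to 1.55 and 1.48 to 1.57 (6 and 13 fits). The difference of their log2 ratio was 1.35 to 1.51 without 1 library and 1.45 to 1.65 otherwise. The difference in share was 21.4 to 23.8 and 22.2 to 24.6 percentage points. Exact permutation p-values were 0.2 without 1 library and 0.1 to 0.25 otherwise, each the smallest that its design allows. The added pseudogene reads and the principal transcript length were chosen after seeing the data.

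The number of genes called higher was 2482, and 1510 to 2479 when 1 library was left out, with 1510 without MK-8617 replicate 1 and 1650 without MK-8617 replicate 3. Removing the length trend moved the median log2 fold change of all tested genes from -0.31 to -0.0056 and Gabarap from -0.28 to 0.038. Of 44 called genes named by rule, 11 lost the call in at least 1 setting. The list counts moved by over 1.5 times in 39 of 360 values. With a replicate block the Bnip3 change was 2.96 ± 0.10 and that of Bnip3l 1.51 ± 0.09. The log2 ratio was then 1.46 (exact permutation p = 0.25, the smallest that the blocked test allows). In the same setting 2510 genes were higher and 2747 lower, and 62 and 24 pathway members against 70 and 21. Deviations of same-numbered samples had correlations of 0.02, 0.12 and 0.11, and those of other pairs -0.13 to 0.02. Whether equal numbers share an animal, litter or day is not stated. With the block 1 BNIP3 or NIX regulator and 1 content gene were higher, against 2 each, and 1 mitochondrially encoded gene was lower. For Bnip3l with MK-8617 the counting error of 1.73% was close to the spread of 2.28%, and what limits its precision was not tested.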
